A study of Mus musculus with 6 samples.

Results

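The MHC class I antigen presentation genes examined here were H2-K1, H2-D1, B2m, Tap1, Tap2, Tapbp, Psmb8, Psmb9, Psmb10 and Nlrc5, 10 of the 44556 genes counted in each library, taken by gene symbol from a list of genes with known roles in the pathway, which was drawn up with earlier results of these data known. All 10 were found in every table and passed the filter on low counts, which left 15600 genes for testing. RNA-seq was carried out on parietal bone, a flat bone of the calvaria, from newborn C57BL/6 mice, with 3 libraries labelled OsxCre and 3 labelled OsxCre;Stat3fl/fl. The groups were littermates and both carried OsxCre, a Cre recombinase driven by the Osx promoter and active in pre-osteoblasts. The groups differed in Stat3, whose alleles in OsxCre;Stat3fl/fl mice carry loxP sites around several exons. No sorting of cells is described, and transcripts of blood, vessel and muscle cells were also counted. The comparison asked how transcripts differ when Stat3 is deleted in the osteoblast lineage. The methods give 3 mice per genotype, equal to the number of libraries, but the labels do not tie a library to an animal, and p-values measure the spread between these libraries only.

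Stat3 had 150, 135 and 141 CPM in the OsxCre libraries against 153, 155 and 155 CPM in those labelled OsxCre;Stat3fl/fl (log2 fold change 0.12, SE 0.07, adjusted p = 0.442 by edgeR's quasi-likelihood test with Benjamini-Hochberg adjustment), so the gene-level count does not show the deletion, and the genotypes rest on the labels. A name of a genotype below therefore stands for the label of a library. Reads over the floxed exons were not analysed here. All 6 libraries had between 7333 and 12392 counts of Xist, no counts of Ddx3y and Kdm5d, and 1 count each of Eif2s3y and Uty in total. These counts go against the male sex given for the newborns, and the reason was not tested.

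MHC class I molecules show short peptides from inside a cell to CD8 T cells, and nearly every nucleated cell makes them. The proteasome cuts proteins into peptides, and in cells exposed to interferon its catalytic subunits can be exchanged for the immunoproteasome subunits encoded by Psmb8, Psmb9 and Psmb10. The TAP transporter carries the peptides into the endoplasmic reticulum, where tapasin loads them onto a heavy chain bound to beta-2 microglobulin, and NLRC5 is a transcriptional activator of many of these genes.

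The promoters of the genes for the 2 heavy chains, the light chain and the transporter subunit Tap1 are shown first, because they hold or lack short motifs known from class I promoters and sit beside genes whose counts are compared here. Each sequence is the 300 bases from 250 before to 50 after a RefSeq transcript start on GRCm38.p6, written 5′ to 3′ on the strand of the gene, and capitals mark motif matches on either strand. The motifs were the interferon-stimulated response element core (GAAA, any 2 bases, GAAA), the GAS element TTCNNNGAA that STAT dimers bind, the kappa B site (GGGA, any base, T, any 2 bases, CC), and the CCAAT box that NF-Y binds. The window of H2-K1 is chr17:34000298-34000597 on the minus strand and is the first of 2 RefSeq entries for the gene. The windows of H2-D1, B2m and Tap1 lie on the plus strand at chr17:35262844-35263143, chr2:122147437-122147736 and chr17:34187306-34187605.
H2-K1: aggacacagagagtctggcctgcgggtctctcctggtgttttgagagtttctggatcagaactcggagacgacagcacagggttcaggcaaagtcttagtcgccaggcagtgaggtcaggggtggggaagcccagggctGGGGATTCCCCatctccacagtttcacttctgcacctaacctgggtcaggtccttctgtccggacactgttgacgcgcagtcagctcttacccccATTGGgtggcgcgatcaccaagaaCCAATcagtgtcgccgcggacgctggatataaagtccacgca
H2-D1: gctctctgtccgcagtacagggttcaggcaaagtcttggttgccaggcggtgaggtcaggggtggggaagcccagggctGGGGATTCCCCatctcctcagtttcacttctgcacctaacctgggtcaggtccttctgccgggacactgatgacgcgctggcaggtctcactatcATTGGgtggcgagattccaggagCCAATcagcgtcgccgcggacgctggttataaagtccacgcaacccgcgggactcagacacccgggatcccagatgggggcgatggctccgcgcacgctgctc
B2m: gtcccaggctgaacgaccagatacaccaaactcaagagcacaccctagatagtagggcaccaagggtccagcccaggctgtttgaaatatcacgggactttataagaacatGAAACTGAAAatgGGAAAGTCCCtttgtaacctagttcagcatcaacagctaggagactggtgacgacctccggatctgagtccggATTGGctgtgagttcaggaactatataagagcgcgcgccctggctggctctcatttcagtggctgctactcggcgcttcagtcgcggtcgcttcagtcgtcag
Tap1: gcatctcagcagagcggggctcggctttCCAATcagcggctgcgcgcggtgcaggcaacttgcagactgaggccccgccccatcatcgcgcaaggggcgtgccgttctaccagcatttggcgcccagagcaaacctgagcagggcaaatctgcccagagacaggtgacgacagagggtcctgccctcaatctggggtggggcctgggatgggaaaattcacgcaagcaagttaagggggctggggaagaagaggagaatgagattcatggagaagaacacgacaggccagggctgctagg

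The H2-K1 and H2-D1 windows were alike: with an offset of 60 bases and no gaps, 176 of 240 bases (73.3%) were identical. In both, a palindromic kappa B site matched on both strands, at -111 to -101 in H2-K1 and -171 to -161 in H2-D1, where the transcript start is 0. The H2-K1 window lies inside the gene model, which ends at 34000619. Positions relative to the start, and their difference between the 2 genes, therefore depend on the RefSeq entry taken. In B2m, which encodes the light chain, the response element core matched at -139 to -130 and the kappa B site at -126 to -117. Tap1 held 1 CCAAT box and none of the other motifs. Among the 8 of the 10 genes with a RefSeq promoter entry, 3 held the kappa B site against 4.16% of all 32851 promoters, 1 held the response element core against 3.44%, 1 held the GAS element against 8.3%, and 6 held the CCAAT box against 37.4%. The GAS match was in Psmb8, at -97 to -89. Tap1 and Psmb9 are divergent neighbours whose windows share 275 bases, so they are not separate examples. The search took exact letters only, so a variant of a motif was not counted, and other elements of class I promoters were not searched. A window without a match may therefore still hold such an element. These matches describe letters in a window and are not binding sites.

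**Figure D1:**
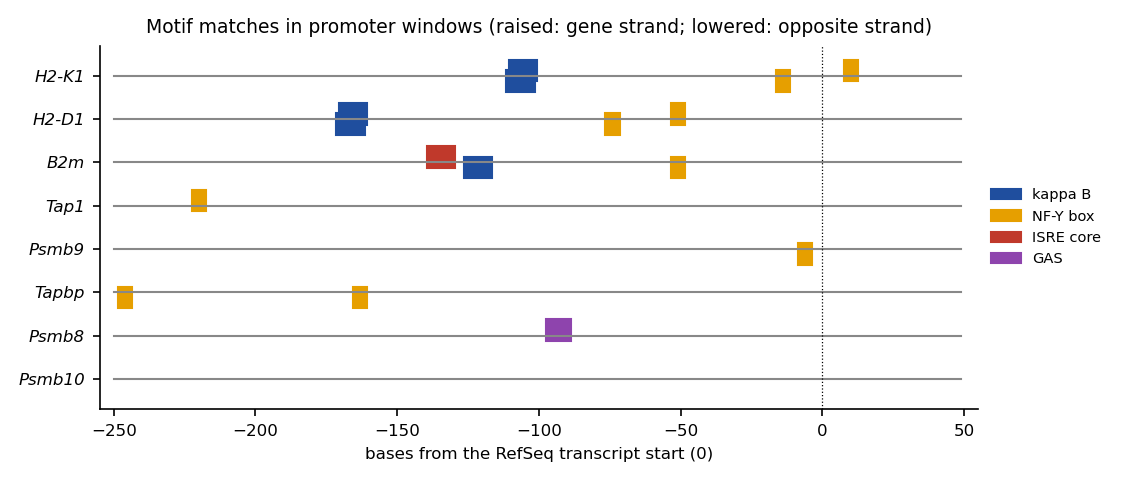
Exact motif matches in the 300-base promoter windows of the 8 genes with a RefSeq entry, plotted by bases from the transcript start. Boxes above the line are for the gene strand and below it for the opposite strand, and variants of a motif are not shown. Kappa B sites appear in H2-K1, H2-D1 and B2m, the response element core appears in B2m, the GAS element appears in Psmb8, and the CCAAT box is drawn as the NF-Y box.

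Across the set, all 10 genes had a log2 fold change above 0 in the OsxCre;Stat3fl/fl libraries with TMM scaling, as did 49.3% of the 15600 genes, and without any scaling 6 of the 10 were above 0 and all 10 above the median of all genes, -0.38. The median log2 fold change of the 10 was 0.45, against 0 over all genes tested. A single gene of the 10, Nlrc5, was higher at an adjusted p under 0.05 by edgeR's quasi-likelihood test with Benjamini-Hochberg adjustment, where 0.776% of all genes were. At an unadjusted p under 0.05, 8 of the 10 were higher, against 8.03% of all genes. That number was 6 by DESeq2's Wald test, and 4 without OsxCre library 1 or without OsxCre library 2. For 6 of the 10, every OsxCre;Stat3fl/fl library lay above every OsxCre library, against 10.8% of all genes. The genes share one pathway and are not independent of each other. In whole bone, more cells of a type and more RNA per cell cannot be told apart. Values below are CPM, read counts relative to the library size after scaling by TMM, in libraries 1, 2 and 3 of a genotype, and an exact permutation test of 3 libraries against 3 cannot give a two-sided p under 0.1.

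**Figure D2:**
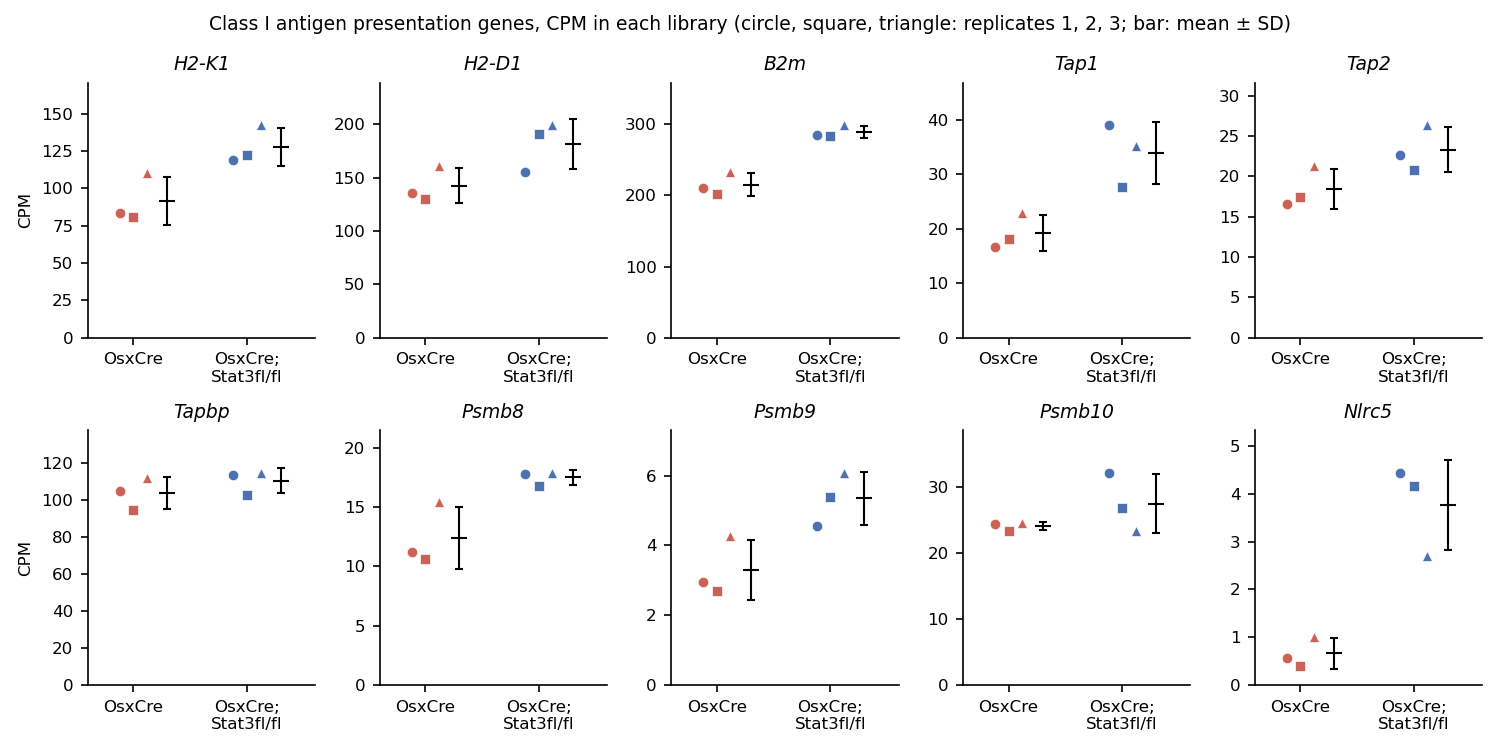
CPM of each gene in each library, with OsxCre in red and OsxCre;Stat3fl/fl in blue, circles, squares and triangles for libraries 1, 2 and 3, and bars for the mean and SD of 3 libraries. The genotypes do not overlap for H2-K1, B2m, Tap1, Psmb8, Psmb9 and Nlrc5, and OsxCre library 3 is the highest control for all 10 genes.

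Nlrc5, which encodes the transactivator, rose 5.53-fold. Its counts were 6, 4 and 12 in the OsxCre libraries and 37, 34 and 23 in the OsxCre;Stat3fl/fl libraries, which gave 0.571, 0.397 and 1.01 CPM against 4.44, 4.17 and 2.69 CPM. Every OsxCre;Stat3fl/fl library was therefore above every control, although the counts were low and the depth allowed as little as 0.248 to 0.366 CPM to be seen, taking 3 counts as the floor. The means were 0.658 ± 0.314 and 3.77 ± 0.943 CPM (SD, n = 3 each). The log2 fold change was 2.47 (SE 0.39, adjusted p = 0.0327 by edgeR's quasi-likelihood test with Benjamini-Hochberg adjustment). When 1 library was left out in turn, the log2 fold change lay between 2.22 and 2.92 and the adjusted p between 0.0429 and 0.132, and the gene passed in 1 of 6 such fits, the one without OsxCre library 3. Nlrc5 lies on chromosome 8 at 94434335 to 94527272 and overlaps the annotated transcripts 9330175E14Rik and Mir7072, whose reads may not be separated from its own.

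Of the heavy chains, which bind the peptide, H2-K1 had 83.7, 80.5 and 110 CPM in the OsxCre libraries and 119, 122 and 142 CPM in the OsxCre;Stat3fl/fl libraries. The genotypes did not overlap, although OsxCre library 3 came close to the lowest of the other group. The means were 91.3 ± 15.9 and 128 ± 12.6 CPM (SD, n = 3 each), with a log2 fold change of 0.48 (SE 0.13, adjusted p = 0.136 by edgeR's quasi-likelihood test with Benjamini-Hochberg adjustment). H2-D1, the other classical heavy chain of this strain, had 136, 130 and 161 CPM against 155, 191 and 199 CPM. Here OsxCre;Stat3fl/fl library 1 fell below OsxCre library 3, and the groups overlapped. Its log2 fold change was 0.35 (SE 0.12, adjusted p = 0.206 by the edgeR test). Neither heavy chain passed the adjusted threshold. The gene models lie on chromosome 17, at 33996012 to 34000619 for H2-K1 and 35263094 to 35267497 for H2-D1, and 7.29% and 12.8% of their 50-base stretches also occur in transcripts of other genes, mostly other class I heavy chains, so reads could have been split between them.

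B2m, which encodes the light chain shared by all class I molecules, had 210, 202 and 233 CPM in the OsxCre libraries and 285, 283 and 298 CPM in the OsxCre;Stat3fl/fl libraries. The 3 OsxCre;Stat3fl/fl libraries lay close together and well above the controls. The means were 215 ± 15.8 and 289 ± 7.97 CPM (SD, n = 3 each), the log2 fold change was 0.42 (SE 0.08) and the adjusted p was 0.0573 by edgeR's quasi-likelihood test with Benjamini-Hochberg adjustment, just over the threshold. B2m lies on chromosome 2 at 122147687 to 122153082, shares none of its 50-base stretches with another gene's transcripts, and overlaps Patl2. Per 100 counts of B2m, H2-K1 had 39.8, 39.8 and 47.1 counts in the OsxCre libraries and 41.8, 43 and 47.7 counts in the OsxCre;Stat3fl/fl libraries. The corresponding values for H2-D1 were 64.7, 64.1 and 69.2 against 54.4, 67.6 and 67. For both ratios the genotypes overlapped, and the log2 differences of 0.07 and -0.07 had p = 0.5 and 0.8 by exact permutation test, 0.8 for both after Benjamini-Hochberg adjustment over the 2 heavy chain ratios.

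Among the genes for peptide transport and loading, Tap1 and Tap2 encode the subunits of the transporter and Tapbp encodes tapasin. Tap1 had 16.7, 18.1 and 22.9 CPM in the OsxCre libraries and 39, 27.7 and 35.2 CPM in the OsxCre;Stat3fl/fl libraries. The groups did not overlap, and the mean was 1.76-fold higher, at 34 ± 5.76 against 19.3 ± 3.23 CPM (SD, n = 3 each). Its log2 fold change was 0.82 (SE 0.17, adjusted p = 0.0671 by edgeR's quasi-likelihood test with Benjamini-Hochberg adjustment). Tap2, its partner, had 16.6, 17.4 and 21.3 CPM against 22.7, 20.8 and 26.3 CPM, with a log2 fold change of 0.34 (SE 0.14, adjusted p = 0.292 by the edgeR test). The groups overlapped, since OsxCre;Stat3fl/fl library 2 lay below OsxCre library 3. Tapbp had 105, 94.9 and 112 CPM against 114, 103 and 115 CPM. The Tapbp values of the genotypes were interleaved, and the log2 fold change of 0.09 (SE 0.09, adjusted p = 0.661 by the edgeR test) was no larger than its error. Tap1, Tap2 and Tapbp lie on chromosome 17 at 34187556 to 34197225, 34204479 to 34216321 and 33919478 to 33929290, and Tapbp overlaps Gm19412.

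Of the immunoproteasome subunits, Psmb9 had the fewest counts. Psmb8, which replaces the constitutive subunit Psmb5, had 11.2, 10.6 and 15.4 CPM in the OsxCre libraries and 17.8, 16.8 and 17.9 CPM in the OsxCre;Stat3fl/fl libraries, with a log2 fold change of 0.49 (SE 0.16, adjusted p = 0.191 by edgeR's quasi-likelihood test with Benjamini-Hochberg adjustment). Psmb9, which replaces Psmb6, had 2.95, 2.68 and 4.28 CPM against 4.56, 5.39 and 6.08 CPM, with a log2 fold change of 0.69 (SE 0.25, adjusted p = 0.233 by the same test). For both, the groups did not overlap and OsxCre library 3 stood closest to the other genotype. Psmb10, which replaces Psmb7, had 24.3, 23.3 and 24.5 CPM against 32.1, 26.8 and 23.3 CPM, with a log2 fold change of 0.19 (SE 0.13, adjusted p = 0.52 by the edgeR test). Its OsxCre;Stat3fl/fl libraries spread widely, and library 3 lay at the level of the controls. Psmb8 and Psmb9 lie on chromosome 17 at 34198195 to 34201454 and 34182030 to 34187330, and Psmb10 lies on chromosome 8 at 105935728 to 105938392. Psmb9, Tap1, Psmb8 and Tap2 thus form a block of 34292 bases, in which 225 bases separate Psmb9 from Tap1. Of the 50-base stretches of Psmb9, 9.71% also occur in Tap1 transcripts, counting both strands. The shares found in transcripts of other genes were 6.27% for Tap1, 9.52% for Tap2 and 5.73% for Psmb8.

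Ratios within a library do not depend on library size or scaling. Psmb8 had 18.3, 17.8 and 23.7 counts per 100 counts of Psmb5 in the OsxCre libraries and 28.5, 31.1 and 29.1 in the OsxCre;Stat3fl/fl libraries, means of 19.9 ± 3.26 and 29.5 ± 1.36 (SD, n = 3 each). Psmb9 had 1.35, 1.28 and 1.99 counts per 100 of Psmb6 against 2.29, 2.37 and 3.12. Both ratios were higher in every OsxCre;Stat3fl/fl library, with p = 0.1 for each by exact permutation test, the smallest it can give, and 0.15 after adjustment over the 3 subunit ratios. Psmb10 had 14.5, 15.7 and 14 counts per 100 of Psmb7 against 19.4, 13.6 and 13.8, which overlapped, with p = 1 by exact permutation test. The constitutive subunits themselves had log2 fold changes of -0.06 for Psmb5, -0.05 for Psmb6 and 0.12 for Psmb7, and none passed the edgeR test or had an unadjusted p under 0.05.

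**Figure D3:**
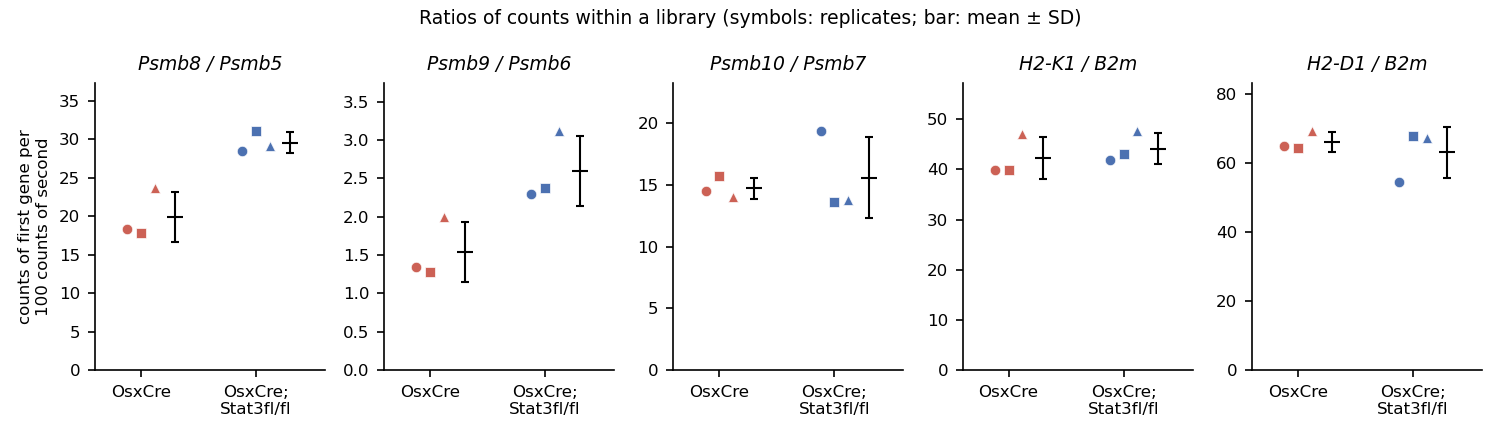
Counts of the first gene per 100 counts of the second in each library, with OsxCre in red and OsxCre;Stat3fl/fl in blue, symbols for libraries 1, 2 and 3, and bars for the mean and SD of 3 libraries. The genotypes do not overlap for Psmb8 over Psmb5 and Psmb9 over Psmb6, and they overlap for the other 3 ratios.

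Levels could be compared between genes only per length, as CPM per kilobase of exon in a GENCODE model of the NCBIM37 genome. The length took in every base of any annotated exon of a gene, 2736 for Psmb8 and 3660 for Psmb9. A gene with long exon forms that are little used could therefore be placed too low, and the order is approximate. In OsxCre libraries, B2m was the most abundant at 250 ± 18.4 CPM per kilobase, followed by H2-D1 at 54.9 ± 6.41, H2-K1 at 35 ± 6.12, Tapbp at 31.5 ± 2.57 and Psmb10 at 18.9 ± 0.503 (SD, n = 3 each). Tap2 at 4.87, Psmb8 at 4.53 and Tap1 at 3.52 came next, then Psmb9 at 0.902 and Nlrc5 at 0.0902, whose model in that annotation is a long noncoding one, so its length is uncertain. The ranges of H2-K1 and Tapbp overlapped, as did those of Tap2 with Psmb8 and of Psmb8 with Tap1, and these neighbours are not ordered beyond their spread. In the OsxCre;Stat3fl/fl libraries Psmb8, Tap1 and Tap2 lay at 6.39, 6.2 and 6.16 with overlapping ranges. The constitutive subunits, from 67.2 for Psmb5 to 134 for Psmb7 in OsxCre libraries, stood far above Psmb8 and Psmb9 on this scale.

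The 10 genes shared a profile over the 6 libraries to differing degrees, and the profile takes in the difference between genotypes. The mean of their standardised log2 CPM was -0.93, -1.2 and -0.02 in OsxCre libraries 1, 2 and 3, and 0.78, 0.5 and 0.88 in the OsxCre;Stat3fl/fl libraries, so OsxCre library 3 lay between the other controls and the OsxCre;Stat3fl/fl libraries. Pearson's r of each gene with the mean of the other members, over 6 libraries that also differ in genotype and depth, was 0.99 for Psmb8, 0.97 for H2-K1 and B2m, 0.94 for Tap1 and Psmb9, 0.93 for Nlrc5, 0.9 for Tap2, 0.82 for H2-D1, 0.73 for Tapbp and 0.42 for Psmb10. Tapbp and Psmb10 thus followed the set least. Within the OsxCre;Stat3fl/fl libraries the order of values differed between genes. There H2-K1 had 119, 122 and 142 CPM, whereas Nlrc5 had 4.44, 4.17 and 2.69 CPM. Correlation within a genotype was not computed. Among 10359 other genes with a mean of at least 10 CPM, the profile was most like that of Pan2 (r = 0.997), Zhx1 (0.993), Cyp4f17 (0.992), Tenc1 (0.987) and Ddx58 (0.986) over the 6 libraries. Their log2 fold changes were small, between 0.14 and 0.31, and none passed the edgeR test.

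The rest of the class I pathway was described from lists drawn up by function, with earlier results of these data known. Of 23 other class I heavy chains in the tables, 8 were tested, 7 had a log2 fold change above 0, and the median was 0.48. At an unadjusted p under 0.05 by edgeR, 4 of the 8 were higher and 1 lower, against 8.03% and 8.34% of all genes. H2-T23, a nonclassical heavy chain (Qa-1) recognised by receptors of natural killer cells, rose from 19.4 ± 1.16 to 36.7 ± 4.79 CPM (SD, n = 3 each), a log2 fold change of 0.92 (SE 0.12, adjusted p = 0.019 by edgeR's quasi-likelihood test with Benjamini-Hochberg adjustment), and passed in 2 of 6 fits with 1 library left out, those without OsxCre library 3 and OsxCre;Stat3fl/fl library 2. H2-T23 was the only heavy chain of this list past the threshold. H2-T22 had a log2 fold change of 0.37 and H2-Q4 one of 0.97, with adjusted p = 0.0825 and 0.141 by the edgeR test. H2-Q10, named after its values were seen as the only gene below 0, had -1.14 (adjusted p = 0.156 by the edgeR test), smaller in size than the largest change above 0. These genes are close copies: 40.6% of the 50-base stretches of H2-T22, 21.4% of H2-Q4 and 15.7% of H2-T23 also occur in transcripts of other genes. Another 6 heavy chains were listed at 0 in all libraries.

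Most genes for the chaperones that fold heavy chains had log2 fold changes of the opposite sign. Of 10 genes for endoplasmic reticulum chaperones and peptide trimming, 8 had a log2 fold change below 0, with a median of -0.40, and 2 were lower at an adjusted p under 0.05, against 0.481% of all genes, or 5 by DESeq2's Wald test and 0 to 3 by edgeR with 1 library left out. Calr, which encodes calreticulin of the peptide-loading complex, fell from 654 ± 74.2 to 371 ± 27.7 CPM (log2 fold change -0.82, SE 0.11, adjusted p = 0.02 by edgeR's quasi-likelihood test with Benjamini-Hochberg adjustment). Canx, which encodes calnexin, fell from 299 ± 11.1 to 211 ± 3.4 CPM (log2 fold change -0.50, SE 0.07, adjusted p = 0.0213 by the same test). Both serve many glycoproteins besides class I, collagen-secreting cells included, and each passed in 1 of 6 fits with 1 library left out, the one without OsxCre library 3. Hspa5, Hsp90b1 and Pdia3, whose protein ERp57 also sits in the loading complex, had log2 fold changes of -0.49, -0.45 and -0.26, with adjusted p = 0.0639, 0.0718 and 0.201 by the edgeR test. Ganab had -0.11. Erap1, which trims peptides, and Tapbpl, a tapasin relative, both named after their values were seen, had 0.23 and 0.03, and neither passed.

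**Figure D4:**
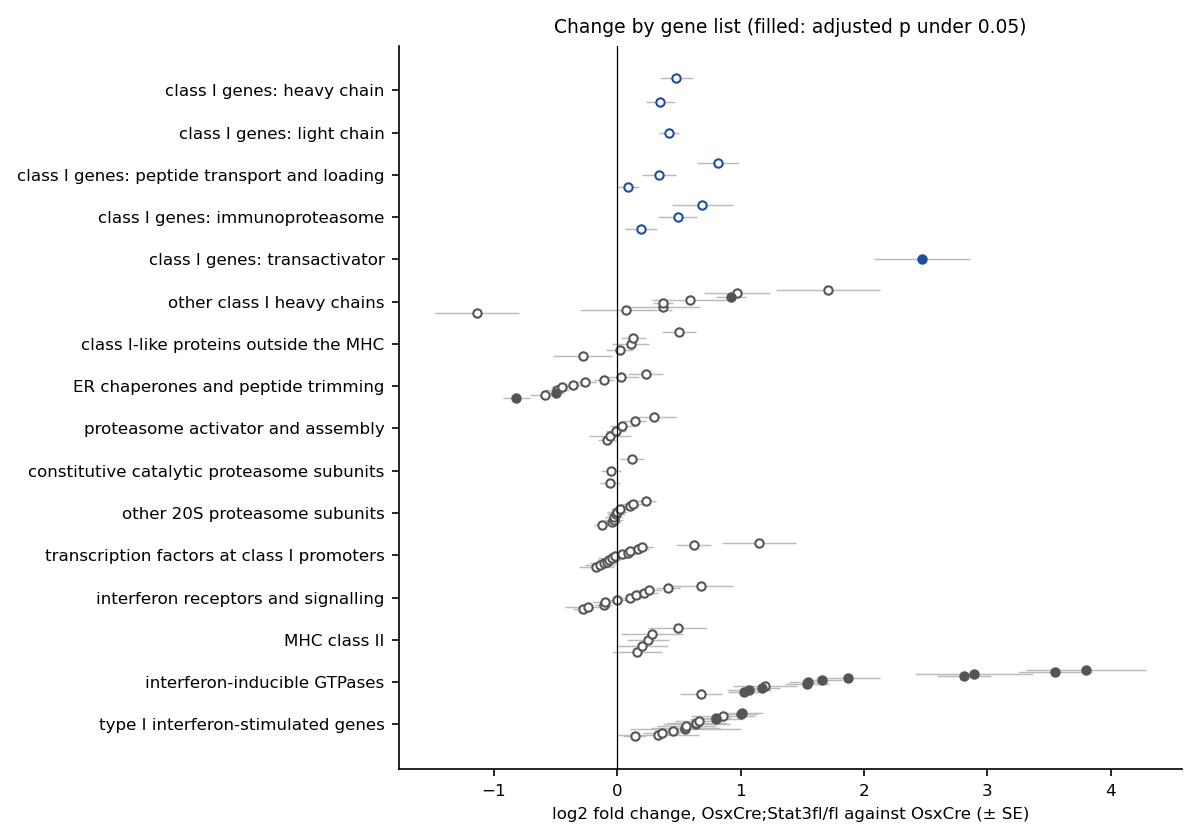
Log2 fold change of each tested gene, OsxCre;Stat3fl/fl against OsxCre, by gene list, with lines for the standard error, filled points for an adjusted p under 0.05 by edgeR, and the 10 class I genes in blue. With TMM scaling the 10 class I genes lie above 0, most chaperones lie below it, and the constitutive proteasome subunits lie around it.

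Proteasome genes outside the immunoproteasome were centred near 0, with medians of 0.01 for 6 activator and assembly genes and -0.01 for 10 other core subunits. None passed by edgeR or DESeq2, and 1 of the core subunits was higher at an unadjusted p under 0.05. Psme1 and Psme2, which encode the interferon-inducible activator PA28, had log2 fold changes of 0.14 and 0.04. Of 14 transcription factor genes with known sites at class I promoters, the median was 0.01 and none passed the adjusted threshold by edgeR or DESeq2, whereas 3 of the 14 were higher at an unadjusted p under 0.05, where 8.03% of all genes were. Those 3, named after their values were seen, were Irf1, Irf2 and Irf8, with log2 fold changes of 0.20, 1.15 and 0.62 and adjusted p = 0.299, 0.125 and 0.0861. Rela and Nfkb1, subunits of the factor that binds kappa B sites, had 0.17 and 0.09.

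The receptors and signalling genes of the interferon pathway, which acts upstream of class I genes, were centred on a log2 fold change of 0.10 (the median of 11 tested). None passed by edgeR or DESeq2, and 3 were higher and 1 lower at an unadjusted p under 0.05, against 8.03% and 8.34% of all genes. Ifngr1 and Ifngr2, which encode the chains of the interferon gamma receptor, had opposite signs at 0.26 and -0.28, with adjusted p = 0.241 and 0.149 by edgeR's quasi-likelihood test with Benjamini-Hochberg adjustment. Irf9, a factor of the interferon response named after its values were seen, had 0.41, with adjusted p = 0.0954 by the edgeR test. Ifng, the gene for interferon gamma, had 1 count in OsxCre;Stat3fl/fl library 2 and 0 in the other 5 libraries. All 13 interferon-inducible GTPases had a log2 fold change above 0, with a median of 1.55. At an adjusted p under 0.05 by edgeR, 11 were higher, against 0.776% of all genes. They were Iigp1, Irgm1, Igtp, Tgtp1, Tgtp2, Gbp2, Gbp3, Gbp4, Gbp6, Gbp7 and Gbp9. All 15 type I interferon-stimulated genes had a log2 fold change above 0, with a median of 0.64. At an unadjusted p under 0.05, 11 were higher, against 8.03% of all genes. Oasl2, Irf7 and Rtp4 passed the adjusted threshold, at 1.00, 0.80 and 1.01 on the log2 scale. With 1 library left out, 3 to 9 of the 13 GTPases and 0 to 4 of the 15 type I genes passed, fewest of the GTPases without OsxCre;Stat3fl/fl library 3. Both lists were drawn up with earlier results of these data known, so their shares are a description and not a test. All 5 tested MHC class II genes had a log2 fold change above 0, with a median of 0.25, and none passed by edgeR or DESeq2 or at an unadjusted p under 0.05. Ciita, the class II counterpart of Nlrc5, had 5, 3 and 5 counts against 9, 7 and 8 and was below the filter.

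Because class I genes are expressed in many cell types, the markers of cells in the tissue were read beside them. The 10 osteoblast markers summed to 26300 to 34900 CPM in OsxCre and 23700 to 30000 CPM in OsxCre;Stat3fl/fl libraries, which overlapped, although 8 of the 10 had a log2 fold change below 0. Ibsp, which encodes bone sialoprotein, fell from 1000 ± 65.3 to 633 ± 27.2 CPM (log2 fold change -0.66, adjusted p = 0.0213 by the edgeR test), and Alpl, named after its values were seen, had -0.54 (adjusted p = 0.0578). The 6 skeletal muscle markers summed to 20000 to 21600 and 22700 to 33300 CPM, without overlap. Among them the myosin heavy chain genes Myh4 and Myh3 passed in opposite directions, at -3.61 (adjusted p = 3.87e-05) and 1.71 (adjusted p = 0.0204 by the edgeR test). Erythroid markers summed to 2230 to 3780 against 1170 to 2080 CPM, without overlap, with all 4 tested below 0 and none past the edgeR test. Endothelial markers summed to 520 to 742 against 653 to 761 CPM and B cell markers to 11.5 to 19 against 12.3 to 16.4 CPM, both with overlap. Macrophage markers summed to 302 to 324 CPM in OsxCre libraries and 376 to 395 CPM in the others, without overlap, with 6 of 7 above 0 and 3 higher at an unadjusted p under 0.05 (C1qb, Cd68 and Cd163, the last named after its values were seen). C1qb passed the adjusted threshold (log2 fold change 0.50, adjusted p = 0.0253 by edgeR's quasi-likelihood test with Benjamini-Hochberg adjustment), and DESeq2 also called Cd163, at 1.32. Neutrophil markers summed to 252 to 420 against 104 to 167 CPM, without overlap. Of the 5 tested, 4 were below 0 and 1 above. Those 4 were lower at an unadjusted p under 0.05 by the edgeR test, against 8.34% of all genes. S100a9 passed the adjusted threshold (-1.25, adjusted p = 0.0423 by the edgeR test), and DESeq2 called 4 lower, where it called 235 of all 15600 genes lower. Markers shared by all leukocytes summed to 172 to 201 against 159 to 176 CPM. T cell markers summed to 5.14 to 7.34 against 6.24 to 7.97 CPM, with Cd8a listed at 0 in all libraries, and no natural killer cell marker reached more than 8 counts in a library. With 1 library left out, C1qb and S100a9 passed in 0 of 6 fits, Ibsp and Myh3 in 2 and Myh4 in 6. Neuronal markers were uneven within genotypes, at 44.9, 217 and 38.1 CPM against 159, 14.7 and 110 CPM. The part of the osteoblast, macrophage, neutrophil, erythroid and muscle markers in the class I values was not tested. With the neuronal level as a covariate, chosen after seeing the data, the log2 fold changes of B2m and Tap1 were 0.42 and 0.81.

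Other scalings, filters and tests were run for each gene. Nlrc5 passed an adjusted p of 0.05 in 9 of the 15 alternatives that kept it, B2m in 5 of 16, Tap1 in 3 and H2-K1 in 1. The other 6 genes passed in none of them. Among the alternatives that scaled the libraries, the log2 fold change lay between 0.38 and 0.48 for B2m, between 0.71 and 0.96 for Tap1, and between 0.03 and 0.15 for Tapbp.

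**Figure D5:**
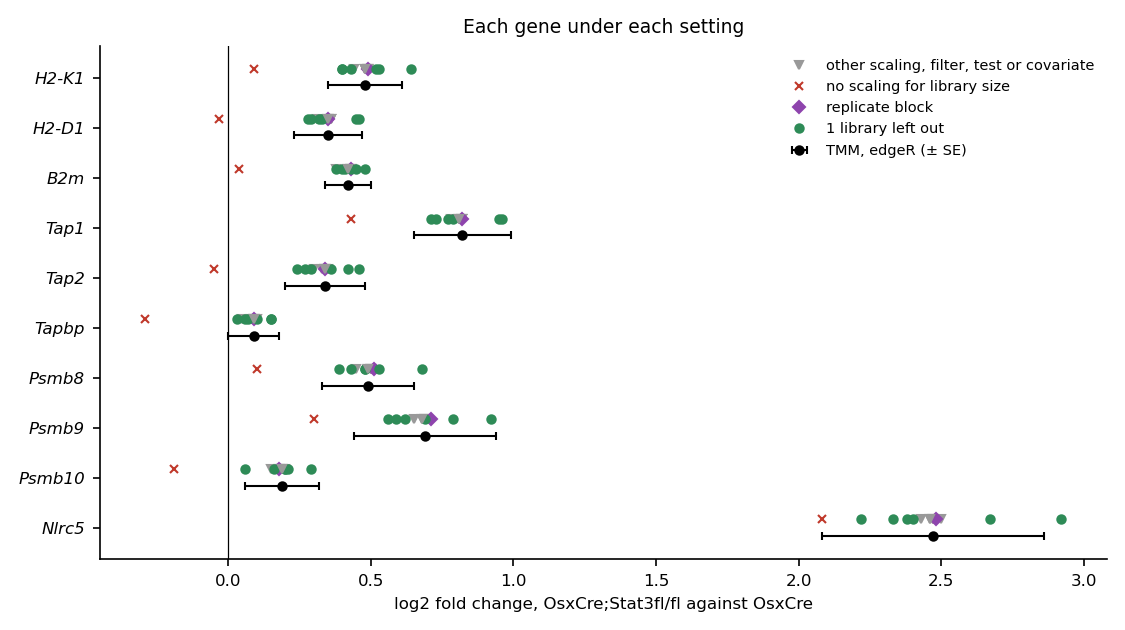
Log2 fold change of each class I gene by edgeR with TMM scaling (black, with standard error) and under each alternative, with crosses for no scaling, green circles for 1 library left out, a diamond for the replicate block and triangles for the others. Without scaling the values of H2-D1, Tap2, Tapbp and Psmb10 lie below 0, at -0.03, -0.05, -0.29 and -0.19, while the other alternatives stay above 0.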

How the data were processed

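Polyadenylated RNA per the labels (total RNA in the study's methods) was sequenced from 6 libraries. The authors deposited whole-number read counts per gene symbol, 44556 genes per table, without normalization. The submitters' processing notes name HISAT2 and GRCm38, the study's methods name TopHat with mm9 and Cufflinks, and the counting program, its annotation and its use of strand are not given in the sources used here. Multi-copy genes and overlapping genes could therefore be counted unevenly. Totals were 8193651 to 12080044 counts per library. The floors reflect counting depth only, whereas the SDs and standard errors take in the spread between libraries.

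The members and gene lists were chosen with earlier results of these data known. Genes were filtered with edgeR's filterByExpr (minimum count 10, minimum total 15), scaled by TMM (factors 0.932 to 1.04) and tested with edgeR 4.0.16's quasi-likelihood test (two-sided), p-values being adjusted by Benjamini-Hochberg over 15600 genes, in R 4.3.3. The standard error was the log2 fold change divided by the square root of F. Ratios were compared by exact permutation tests. All 10 members were named, and from each list genes past an adjusted p of 0.05 and up to 4 others with the highest mean CPM could be named. Other tested genes of the lists are marked as named after their values were seen, and Ciita and genes at 0 in all libraries are named without a mark. A gene of one list is counted in its totals and not reported singly here. Pairs of libraries of one genotype differed by 7.51 to 15.6 chi-square per degree of freedom, so none was a duplicate. On counts simulated once for this comparison, 15406 genes were tested, and 52.3% of 195 tested genes changed 2-fold were recovered. Another 11 genes were called. Those 11 calls are to be set against the genes recovered, not against all genes tested. Alternatives were other scalings, filters, DESeq2 1.42.0, limma-voom (limma 3.58.1), a replicate block and leaving out each library. Exon lengths came from GENCODE on NCBIM37, and positions and promoters from RefSeq on GRCm38.p6, matched by symbol. Tap2 and Nlrc5 had no promoter entry. Shared sequence was counted as 50-base stretches of annotated protein-coding transcripts, in which Nlrc5 was not listed. Tables and plots used Python 3.11.15, pandas 2.3.3 and matplotlib 3.10.9.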

Additional observations from a re-analysis of the deposited data

How the results depend on the processing

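Of the 10 genes, 1 passed an adjusted p of 0.05 by edgeR with TMM scaling, and 196 genes passed in all. The number of class I genes was 2 with upper-quartile factors, 3 without the filter on low counts, where 428 genes passed, 4 with DESeq2's Wald test, where 539 passed, and 3 with the neuronal marker level as a covariate, where 451 passed and which was chosen after seeing the data. DESeq2 called H2-K1, B2m, Tap1 and Nlrc5. The same replicate numbers did not pair the libraries (correlations of -0.1, -0.51 and -0.09, and no library correlated best with its own number), and with the replicate block 1 gene and 0 class I genes passed, with Nlrc5 at a log2 fold change of 2.48 (adjusted p = 0.173). Leaving out 1 library gave 12 to 103 genes, 0 to 1 class I genes and a median over the 10 of 0.38 to 0.56. The lowest count, 12, came without OsxCre;Stat3fl/fl library 3. Without any scaling 5572 genes passed, the median of all genes was -0.38, and the log2 fold changes were -0.03 for H2-D1, -0.05 for Tap2, -0.29 for Tapbp and -0.19 for Psmb10, all above that median. The log2 difference of the Psmb10 to Psmb7 ratio lay between -0.10 and 0.15, and that of H2-D1 to B2m between -0.13 and 0.03, when 1 library was left out. The turned signs, -0.10 and 0.03, came without OsxCre;Stat3fl/fl library 1. The stricter filter removed Psmb9 and Nlrc5. The cause of these differences was not tested, and fits with 1 library left out also have fewer samples. Nlrc5, at 4 to 37 counts, is limited by depth.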

Other observations

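Of 5 class I-like genes outside the MHC that were tested, none passed the edgeR test. Fcgrt, the neonatal Fc receptor, which also pairs with B2m, had 197 ± 22.9 CPM in OsxCre and 216 ± 15.5 CPM in OsxCre;Stat3fl/fl libraries (SD, n = 3 each), with overlap. On the log2 scale Hfe was at 0.02, Cd1d1 at -0.28 and Mr1 at 0.11, each with overlap. Procr, the endothelial protein C receptor, named after its values were seen as the highest of the 5, was at 0.50 (adjusted p = 0.14 by edgeR's quasi-likelihood test with Benjamini-Hochberg adjustment). The median of these genes was 0.11.

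Most of the class I genes lie in the MHC on chromosome 17, so the other genes between Tapbp and H2-D1 (33919478 to 35267497) were counted. Of 67 tested, 36 had a log2 fold change above 0, the median was 0.02, and 3 (4.48%) were higher and 3 lower at an unadjusted p under 0.05, against 8.03% and 8.34% of all genes. None passed the adjusted threshold by edgeR. The genotypes did not overlap with OsxCre;Stat3fl/fl higher for 4 (5.97%) and lower for 9, against 10.8% and 12.2% of all genes.

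Most receptors for class I molecules had too few counts to be tested. Cd8a, Cd8b1, Klra3 and Klrc1 were listed at 0 in all libraries, and 2 of 9 genes passed the filter. Those were Pirb and Lilrb4, with log2 fold changes of -0.15 and 0.28. Their genotypes overlapped, and neither passed the edgeR test.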
